A study of Mus musculus with 4 samples.

Results

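The 8 genes considered here encode proteins of the axon initial segment and their close relatives. They are the ankyrins Ank2 and Ank3, the beta spectrins Sptbn1 and Sptbn4, and the L1 family of cell adhesion molecules Nfasc, Nrcam, L1cam and Chl1. They were chosen by name, with earlier results of these data known, and are 8 of the 45706 features in the count matrices. Their raw unique molecular identifiers (UMIs) were summed per library and per deposited cluster along the granule cell trajectory and in glia. All 8 were among the 13513 genes that passed the filter on low counts in the fit along the trajectory. Isoforms of a gene, such as the giant forms of Ank3 or the neuronal and glial forms of Nfasc, cannot be told apart in these gene counts.

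The series profiled nuclei born in the adult mouse dentate gyrus by single-nucleus RNA sequencing. All 4 libraries came from male and female mice of 6 to 8 weeks with an inducible Cre and the reporter CAGfloxStop-Sun1/sfGFP that received tamoxifen, and they differ in the time from induction to dissection, which was 1, 2, 4 or 8 weeks (w1, w2, w4 and w8). Each library is 1 pool of 4 left dentate gyri, from which GFP+ nuclei were sorted, so every week has 1 sample and no difference between weeks was tested. From w4 the authors removed a group of nuclei that, the paper proposes, could come from 1 outlier male mouse. After all their filters 3831 nuclei of 5459 w4 barcodes remained. The Cre labels the cells in which it was active at the time of tamoxifen together with their later progeny, so a w8 library holds few stem cells and a w1 library few neurons of the late clusters, and cluster and week are partly confounded.

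Ankyrins are adaptor proteins that tie membrane proteins to the spectrin skeleton beneath the membrane. Ankyrin-G, the product of Ank3, organizes the axon initial segment, the stretch of axon where action potentials start: it recruits beta-IV spectrin (Sptbn4), voltage-gated sodium and potassium channels, and the L1 family proteins neurofascin and NrCAM. The L1 family members are immunoglobulin superfamily adhesion molecules that bind ankyrins through a conserved cytoplasmic motif, and L1CAM and CHL1 are known for their roles in axon growth and guidance.

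The 13 deposited clusters hold 14367 nuclei and 91942382 UMIs, with 2867 to 4243 nuclei and a median of 4369.0 to 7703.5 UMIs per nucleus in a library. Along the trajectory they are radial glia-like cells (RGL), neural progenitor cells (NPC), neuroblasts (NB1, NB2), immature (GCimm1, GCimm2), young (GCyoung) and mature granule cells (GCmat1, GCmat2). Outside it lie astrocytes (Astro, 67 nuclei), oligodendrocyte precursors (OPC, 131), oligodendrocytes (Oligo, 45) and a cluster deposited as pericytes (Peri, 60). Marker genes were highest in the cluster of their name for 5 of 5 astrocyte, 5 of 5 oligodendrocyte, 4 of 4 precursor and 4 of 5 vascular and leptomeningeal genes. The exception was Rgs5, a marker of pericytes, which had 0 UMIs in Peri, where Slc6a13 and Col1a2, genes of leptomeningeal cells and fibroblasts, stood at 648 and 401 counts per 1e6 UMIs. Pdgfrb and Vtn, the remaining genes of that list, were also highest in Peri, at 101 and 72.7. The markers go only in part with the label, so the cluster is called Peri by its deposited name. Any pair of libraries shared 1 to 6 cell barcodes. The authors built the clusters from these same nuclei, with 5 of the 8 genes (all but Ank2, Ank3 and Sptbn1) among the genes of the deposited log2 table, so a p-value between clusters is no independent test of the clusters. It sets a difference against the spread between sums, which is estimated over all clusters of a fit together.

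A level is given in CPM, the UMIs of a gene for every 1e6 UMIs of the same nuclei, and a library counts where it gave at least 10 nuclei of the cluster. A difference is the log2 change fitted by edgeR's quasi-likelihood test with a term for library and TMM scaling. A gene is called where its fold was 1.5 or more and its p, adjusted by Benjamini-Hochberg over all genes tested, was 0.05 or less. Neighbouring steps of the trajectory share the sums of 1 cluster, and all comparisons with GCimm1 share its sums. The fit weighs the sums of each library and scales them, so a fitted difference need not equal the ratio of pooled levels: Ank3 was at 3251 CPM in GCimm2 and 2612 in GCyoung, while its fitted difference was -0.04 ± 0.26 (SE, edgeR adjusted p = 0.95).

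The genes are long and are spread over 8 chromosomes (GRCm38, GENCODE M21). Ank2 lies at chr3:126921612-127499350 (- strand) and Ank3 at chr10:69398773-70027438 (+ strand), and they span 578 and 629 kb with 98 and 130 distinct annotated exons. Sptbn1 lies at chr11:30099395-30268175 (- strand) and Sptbn4 at chr7:27356383-27447686 (- strand). Nfasc lies at chr1:132564690-132741797 (- strand), Nrcam at chr12:44328885-44601964 (+ strand), L1cam at chrX:73853778-73896105 (- strand) and Chl1 at chr6:103510586-103750211 (+ strand). The counts took in exons and introns, and the paper states default parameters for the counting without naming a strand setting. Sptbn1 overlaps the antisense genes Gm29237 (4561 UMIs over all nuclei, against 38011 of Sptbn1) and Gm8098 (1501 UMIs), and L1cam (3557 UMIs) overlaps Arhgap4 (845 UMIs) on its own strand, so reads in the shared stretches could have gone to either gene.

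L1cam and Nrcam moved in opposite directions when GCimm2 nuclei are compared with GCyoung nuclei (values given with the L1 family), and their promoters are shown for that reason. The sequences are the 250 bases before the RefSeq start site (GRCm38.p6), 5′ to 3′ on the gene's strand, with matches in capitals to any of the motifs searched (the E-box forms CAGCTG and CAGATG, the Sox motif AACAAT, the TATA box TATAAA, the box CCAAT, the GC box GGGCGG, the CRE part TGACG, and the RE1 parts TTCAGCACC and GGACAGC). RefSeq's table held 7 of the 8 genes, with 2 promoters of L1cam and 1 of Nrcam. The more upstream of the L1cam promoters is shown, and it lies within the annotated span of the gene and overlaps no annotated exon.
L1cam, chrX:73880835-73881084, minus strand: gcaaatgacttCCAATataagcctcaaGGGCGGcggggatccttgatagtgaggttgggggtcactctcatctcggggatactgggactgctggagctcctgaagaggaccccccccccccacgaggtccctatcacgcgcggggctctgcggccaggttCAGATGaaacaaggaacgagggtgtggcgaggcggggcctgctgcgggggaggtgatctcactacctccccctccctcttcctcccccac
Nrcam, chr12:44328635-44328884, plus strand: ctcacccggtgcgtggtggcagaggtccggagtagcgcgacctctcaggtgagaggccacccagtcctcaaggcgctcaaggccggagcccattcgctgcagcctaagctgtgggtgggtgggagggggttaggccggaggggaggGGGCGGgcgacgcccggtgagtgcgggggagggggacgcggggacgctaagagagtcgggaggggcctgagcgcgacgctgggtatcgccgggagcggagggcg
The L1cam window holds the letters CCAAT, the GC box GGGCGG and the E-box CAGATG, and the Nrcam window holds GGGCGG. Searched on both strands, these motifs stood in 34.5% (CCAAT), 33.0% (GGGCGG) and 14.5% (CAGATG) of all 27025 promoter windows of this length, 1 per gene. The Nrcam window has 25 CpG and the L1cam window 12, against a median of 6.0 over all promoters. A match is a description of the letters and not a binding site.

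Most of the 8 genes rose at 1 step, from NPC to NB1. There 7 of 8 were higher in NB1 and 0 lower, where 14.7% of all genes tested were called higher and 14.6% lower, and the median difference of the 8 genes was 2.68 on the log2 scale against 0.06 over all genes. The 8 genes were chosen with earlier results of these data known, so the shares over all genes give a scale and no test of the set. At the step before, from RGL to NPC, 3 of 8 were lower and 0 higher (background 15.9% lower and 13.7% higher). Each later step changed at most 3 of the 8 genes. From NB1 to NB2 1 was higher and 0 lower (background 1.81% and 1.13%), a call that some alternatives lost, and from NB1 to GCimm1 2 were higher and 0 lower (background 7.76% and 4.75%). From GCimm1 to GCimm2 1 was higher and 1 lower (background 6.52% and 2.91%), and both calls were lost without w2 and without w4. From GCimm2 to GCyoung 2 were higher and 1 lower (background 9.27% and 9.62%), and all of these calls were lost without w4. From GCyoung to GCmat1 1 was lower and 0 higher (background 2.25% and 1.6%), a call that was lost without w4 and without w8. From GCmat1 to GCmat2 edgeR called none (background 3.01% higher and 4.28% lower), DESeq2 also called none, and 1 of the 8, Sptbn4, had an unadjusted p under 0.05. Between the ends of the trajectory, RGL and GCmat1, 7 of 8 were higher in GCmat1 and 1 was lower (background 24.6% and 24.9%).

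**Figure D1:**
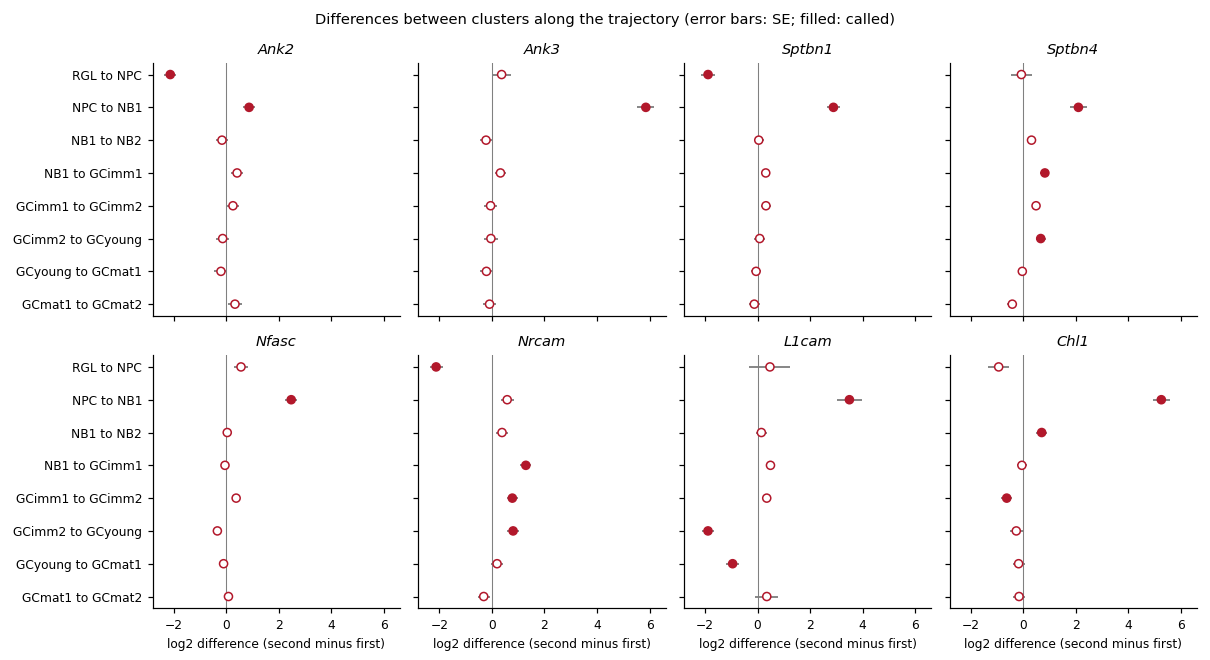
Fitted log2 difference (x axis, later minus earlier cluster) at 8 steps of the trajectory, 1 panel per gene, with standard errors as bars and filled points where the gene was called. The step from NPC to NB1 carries the largest increase of each gene but Nrcam, up to 5.85 for Ank3, and that of Nrcam, 1.29, is from NB1 to GCimm1.

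Ank3, the gene of ankyrin-G, was near its lowest in stem and progenitor cells and high in every neuronal cluster. In RGL its level was 27.0, 46.5, 64.8 and 22.3 in w1, w2, w4 and w8, and in NPC it was 70.1, 70.9 and 39.3 in w1, w2 and w4. In NB1 it was 3459, 3111 and 3242 CPM in w1, w2 and w4, so that each NB1 library lay far above each NPC library. The difference from NPC to NB1 was 5.85 ± 0.32 (SE, edgeR adjusted p = 9.1e-21), in 3 of 3 libraries, whereas that from RGL to NPC was 0.37 ± 0.35 (SE, edgeR adjusted p = 0.47). From NB1 onward no step passed the call for Ank3, and its pooled level went from 3319.6 in NB1 and 3499 in GCimm1 to 2612 in GCyoung, 2331 in GCmat1 and 2191 in GCmat2. In order of level, GCimm1, Oligo, NB1 and GCimm2 came first with library ranges that overlap between neighbours, and NPC, RGL, Astro and Peri came last, again with overlapping ranges. OPC stood between these groups at 1077 and overlapped neither neighbour.

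Ank2, the gene of ankyrin-B, which acts along the axon shaft and in many non-neuronal membranes, followed another course. Its highest level of any cluster was in RGL, at 4628, 3126, 3595 and 3662 CPM in w1, w2, w4 and w8. In NPC it was 1164, 961 and 1114 in w1, w2 and w4, below every RGL library, and the difference from RGL to NPC was -2.13 ± 0.23 (SE, edgeR adjusted p = 7.8e-11). In NB1 it was 1755, 1554 and 1559 in w1, w2 and w4, above every NPC library, with a difference of 0.87 ± 0.23 (SE, edgeR adjusted p = 0.0026). This increase lost its call without w2, when it was 0.80 (edgeR adjusted p = 0.065). No later step was called for Ank2, whose pooled level stayed between 1509.7 in GCmat1 and 2044 in GCimm2 over the neuronal clusters, and it was lower in GCmat1 than in RGL (-0.94 ± 0.22 SE, edgeR adjusted p = 2.0e-04). It was higher in RGL than in astrocytes (0.97 ± 0.22 SE, edgeR adjusted p = 0.0015), a call that was lost without w4, when the difference was 0.83 (edgeR adjusted p = 0.079).

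**Figure D2:**
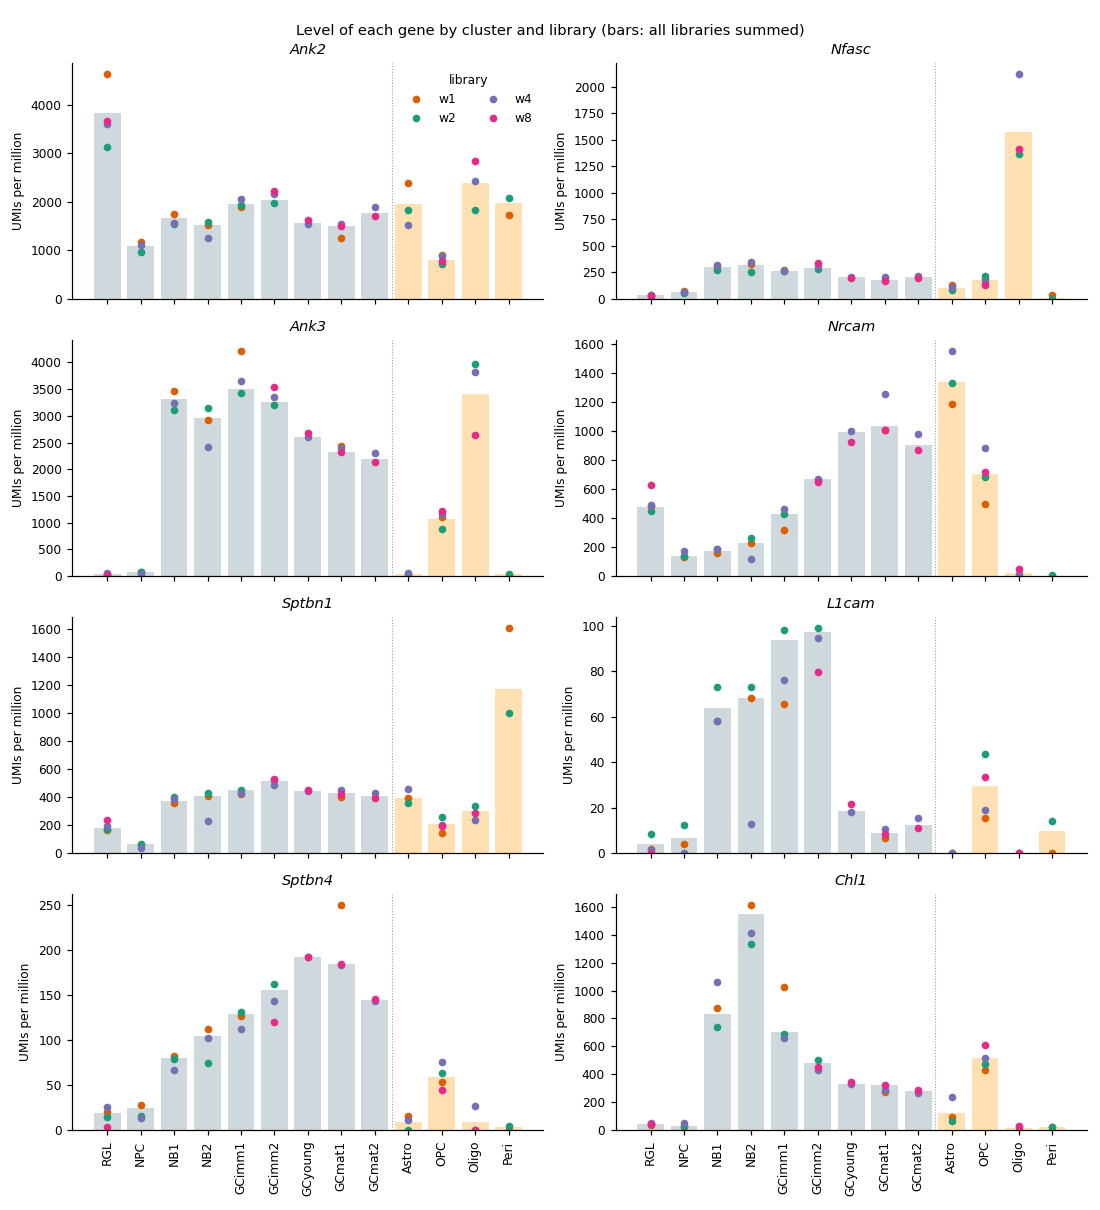
Level of each gene (CPM, y axis) in the 13 clusters, with bars for all libraries summed and 1 point per library with at least 10 nuclei. Ank3 steps up between NPC and NB1, Ank2 is highest in RGL, and Nrcam and L1cam part between GCimm2 and GCyoung.

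The beta spectrins form the submembrane lattice with alpha spectrin. Sptbn1, the gene of the widely used beta-II spectrin of axons and cell bodies, was lowest in NPC, at 60.1, 67.8 and 39.3 CPM in w1, w2 and w4. It was 165, 171, 191 and 236 in w1, w2, w4 and w8 in RGL and 355, 402 and 389.9 in w1, w2 and w4 in NB1, so that the NPC libraries lay below those of both neighbours. It fell from RGL to NPC, with a log2 difference of -1.88 ± 0.27 (SE, edgeR adjusted p = 8.1e-08), and rose from NPC to NB1, with 2.89 ± 0.26 (SE, edgeR adjusted p = 2.2e-13). From NB1 on no step was called, and pooled levels ran from 374 in NB1 to 513 in GCimm2 and 405 in GCmat2. Astrocytes held 391, 356 and 455 in w1, w2 and w4, and the difference from Astro to RGL was -1.12 ± 0.22 (SE, edgeR adjusted p = 2.0e-04).

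Sptbn4, the gene of beta-IV spectrin of the axon initial segment and nodes of Ranvier, rose in several steps from an RGL level of 19.6, 14.6, 25.8 and 3.19 CPM in w1, w2, w4 and w8. Its level was 28.1, 15.4 and 13.1 CPM in w1, w2 and w4 in NPC and 82.7, 78.5 and 67.2 in w1, w2 and w4 in NB1, with no overlap and a difference of 2.10 ± 0.33 (SE, edgeR adjusted p = 7.3e-07). It was 127, 131 and 113 in w1, w2 and w4 in GCimm1, above each NB1 library, with a difference from NB1 of 0.83 ± 0.17 (SE, edgeR adjusted p = 1.8e-04). It was 163, 144 and 119.9 in w2, w4 and w8 in GCimm2 and 192 and 192 in w4 and w8 in GCyoung, again without overlap, with a difference of 0.67 ± 0.19 (SE, edgeR adjusted p = 0.0067). That last call rested on w4: without it the difference was 0.74 (edgeR adjusted p = 0.32), and DESeq2 gave 0.61 with an adjusted p of 0.14. The step between, from GCimm1 to GCimm2, missed the required fold (0.49 ± 0.17 SE, edgeR adjusted p = 0.049). From RGL to GCmat1 the difference was 3.99 ± 0.20 (SE, edgeR adjusted p = 8.4e-24), against 1.67 for Sptbn1. GCmat1 held 249.7, 184 and 184 CPM in w1, w4 and w8 and GCmat2 144 and 145 in w4 and w8, with a difference of -0.41 ± 0.20 (SE, edgeR adjusted p = 0.26).

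The L1 family members each had a course of their own. Nfasc, the gene of neurofascin, which holds the initial segment and, in its glial form, the paranode together, was 37.4, 32.9, 36.8 and 31.9 CPM in w1, w2, w4 and w8 in RGL. It was 72.1, 52.4 and 65.5 in w1, w2 and w4 in NPC and 312, 273 and 316 in w1, w2 and w4 in NB1, and no NB1 library came near an NPC library. The difference from NPC to NB1 was 2.47 ± 0.22 (SE, edgeR adjusted p = 1.1e-13), and no other step of the trajectory was called for Nfasc. Its pooled level was 317 in NB2, 291 in GCimm2 and 178 in GCmat1. Astrocytes held 130.2, 80.1 and 108 in w1, w2 and w4, above every RGL library, and the difference from Astro to RGL was -1.60 ± 0.31 (SE, edgeR adjusted p = 1.4e-04).

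Nrcam, whose product binds neurofascin and is recruited to the initial segment and nodes, was the one gene of the 8 that was not called from NPC to NB1 (0.58 ± 0.25 SE, edgeR adjusted p = 0.075). It was 479.7, 448, 488 and 625 CPM in w1, w2, w4 and w8 in RGL and 132, 136 and 170.4 in w1, w2 and w4 in NPC, with a difference of -2.12 ± 0.24 (SE, edgeR adjusted p = 3.6e-10). In NB1 it was 161, 189.6 and 184 in w1, w2 and w4 and overlapped the NPC libraries, although each library was higher in NB1 than in NPC. The call was made in counts thinned to 2000 UMIs per nucleus, at 1.15, without the filter on low counts, at 0.71, with sums of at least 30 nuclei, at 0.60, and without w8, at 0.63 (edgeR adjusted p from 0.0035 to 0.042). It then rose along the neuronal clusters. GCimm1 held 316, 429 and 462 in w1, w2 and w4, GCimm2 665, 672 and 646 in w2, w4 and w8 and GCyoung 999 and 925 in w4 and w8, and the libraries of each of these clusters lay above all those of the one before. The differences were 1.29 ± 0.20 (SE, edgeR adjusted p = 2.3e-06) from NB1 to GCimm1, 0.78 ± 0.20 (SE, edgeR adjusted p = 0.0061) from GCimm1 to GCimm2 and 0.81 ± 0.22 (SE, edgeR adjusted p = 0.0058) from GCimm2 to GCyoung. From GCimm1 to GCimm2 the call was lost without w2, at 0.77 (edgeR adjusted p = 0.21), and without w4, at 0.78 (edgeR adjusted p = 0.076). From GCimm2 to GCyoung it was lost without w4, at 0.66 (edgeR adjusted p = 0.43). In GCmat1 Nrcam was 1005, 1257 and 1005 in w1, w4 and w8. Astrocytes had a higher level than RGL, with 1187, 1335 and 1549.8 in w1, w2 and w4, and the difference from Astro to RGL was -1.43 ± 0.20 (SE, edgeR adjusted p = 3.0e-07).

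L1cam, an adhesion molecule of growing axons, had the fewest UMIs of the family (3557 in all nuclei) and was highest in GCimm1 and GCimm2. It was 4.01, 12.3 and 0 CPM in w1, w2 and w4 in NPC and 58.1, 72.9 and 58.3 in w1, w2 and w4 in NB1, with a difference of 3.49 ± 0.47 (SE, edgeR adjusted p = 2.4e-08). Only 6 UMIs of L1cam were counted in NPC, so the size of this rise rests on a level near 0. GCimm1 held 65.6, 98.2 and 76.3 in w1, w2 and w4 and GCimm2 99.0, 94.5 and 79.9 in w2, w4 and w8. GCyoung held 18.0 and 21.6 in w4 and w8, below each GCimm2 library, and GCmat1 held 6.40, 10.5 and 8.33 in w1, w4 and w8. L1cam thus fell at both of these steps, with differences of -1.88 ± 0.23 (SE, edgeR adjusted p = 4.6e-09) and -0.95 ± 0.26 (SE, edgeR adjusted p = 0.019). The fall from GCimm2 to GCyoung kept its direction but not its call without w4, at -1.44 (edgeR adjusted p = 0.17). The fall from GCyoung to GCmat1 lost its call without w4, at -1.26 (edgeR adjusted p = 0.095), without w8, at -0.79 (edgeR adjusted p = 0.36), in counts thinned to 2000 UMIs per nucleus, at -1.12 (edgeR adjusted p = 0.21), and without the library term, at -1.02 (edgeR adjusted p = 0.081). In RGL L1cam was 1.74, 8.46, 1.47 and 0 in w1, w2, w4 and w8, which overlaps GCmat1, and pooled levels were 3.93 in RGL and 8.60 in GCmat1. The difference from RGL to GCmat1 was 1.98 ± 0.39 (SE, edgeR adjusted p = 2.2e-05), higher in 3 of 3 libraries that hold both clusters, among which w2, the highest RGL library, is not. Both levels are near 0, with 24 UMIs of L1cam in all RGL and 251 in all GCmat1. GCmat1 of w1 holds 17 nuclei and 156160 UMIs, so its level rests on very few UMIs of L1cam.

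Chl1, the close homolog of L1, was highest in NB2. It was 22.0, 27.7 and 52.4 CPM in w1, w2 and w4 in NPC and 876, 738 and 1062 in w1, w2 and w4 in NB1, with a difference of 5.25 ± 0.33 (SE, edgeR adjusted p = 6.7e-19). From RGL to NPC its difference was -0.93 ± 0.40 (SE, edgeR adjusted p = 0.072), which was called without the filter on low counts (-1.01) and with sums of at least 30 nuclei (-1.16). NB2 held 1611, 1333 and 1409 in w1, w2 and w4, above every NB1 library, and the difference from NB1 to NB2 was 0.70 ± 0.20 (SE, edgeR adjusted p = 0.036). This call was lost without w1, at 0.56 (edgeR adjusted p = 0.36), without w2, at 0.63 (edgeR adjusted p = 0.38), with DESeq2, at 0.79 (adjusted p = 0.059), and without the library term, at 0.69 (edgeR adjusted p = 0.17). GCimm1 held 1026, 688 and 659 in w1, w2 and w4 and GCimm2 503, 429 and 453 in w2, w4 and w8, with a difference of -0.62 ± 0.21 (SE, edgeR adjusted p = 0.047). That fall lay near both thresholds and lost its call on leaving out any 1 of the libraries, with values from -0.92 without w2 to -0.43 without w1. No later step was called, and the level in GCmat1 was 275, 286 and 326 in w1, w4 and w8, where RGL held 34.4, 44.2, 52.3 and 41.4 in w1, w2, w4 and w8. Astrocytes held 91.9, 62.3 and 238 in w1, w2 and w4, more than RGL. The difference from Astro to RGL was -1.54 ± 0.37 (SE, edgeR adjusted p = 0.0024), which was not called without w4, when it was -0.97 (edgeR adjusted p = 0.27).

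The deposited pseudo-time, available for 13635 nuclei from RGL to GCmat1, placed these courses in finer order. In bins of 2 units with at least 20 nuclei, Ank3 was 147 CPM from 8 to 10, where NPC are the commonest nuclei, 1989 from 10 to 12 and 3903 from 14 to 16, its highest bin. Nfasc and Chl1 were highest from 10 to 12 with all libraries pooled, at 399.6 and 1123, after 163 and 161 in the bin before. L1cam was highest from 18 to 20, at 107, and stood at 29.7 from 24 to 26. Sptbn1 was highest from 20 to 22 (533), Sptbn4 from 24 to 26 (197) and Nrcam from 28 to 30 (1108). The 5 genes Ank3, Sptbn1, Nfasc, L1cam and Chl1 reached 50% of their highest bin from 10 to 12, whereas Sptbn4 did so from 16 to 18 and Nrcam from 18 to 20. Ank2 was highest in the opening bin, at 3861, and lowest from 8 to 10, at 960.1. The bins pool nuclei of several libraries and the pseudo-time was computed from the same nuclei, so these are descriptions without a test. Within libraries the highest bin of Nfasc was from 10 to 12 in w1, w2 and w4. That of Chl1 was from 10 to 12 in w2 and w4 and from 12 to 14 in w1, and that of L1cam was from 18 to 20 in w2 and w4 and from 16 to 18 in w1, the last bin of that library. Ank3 reached 50% of the highest bin of its library from 10 to 12 in w2 and w4 and from 12 to 14 in w1. Sptbn4 reached it from 10 to 12 in w1, 14 to 16 in w2 and 16 to 18 in w4, and Nrcam in the opening bin in w1, w2 and w8 and from 20 to 22 in w4. In w1 Sptbn4 thus did not come later than the other genes, and w1 and w2 end before the latest bins.

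**Figure D3:**
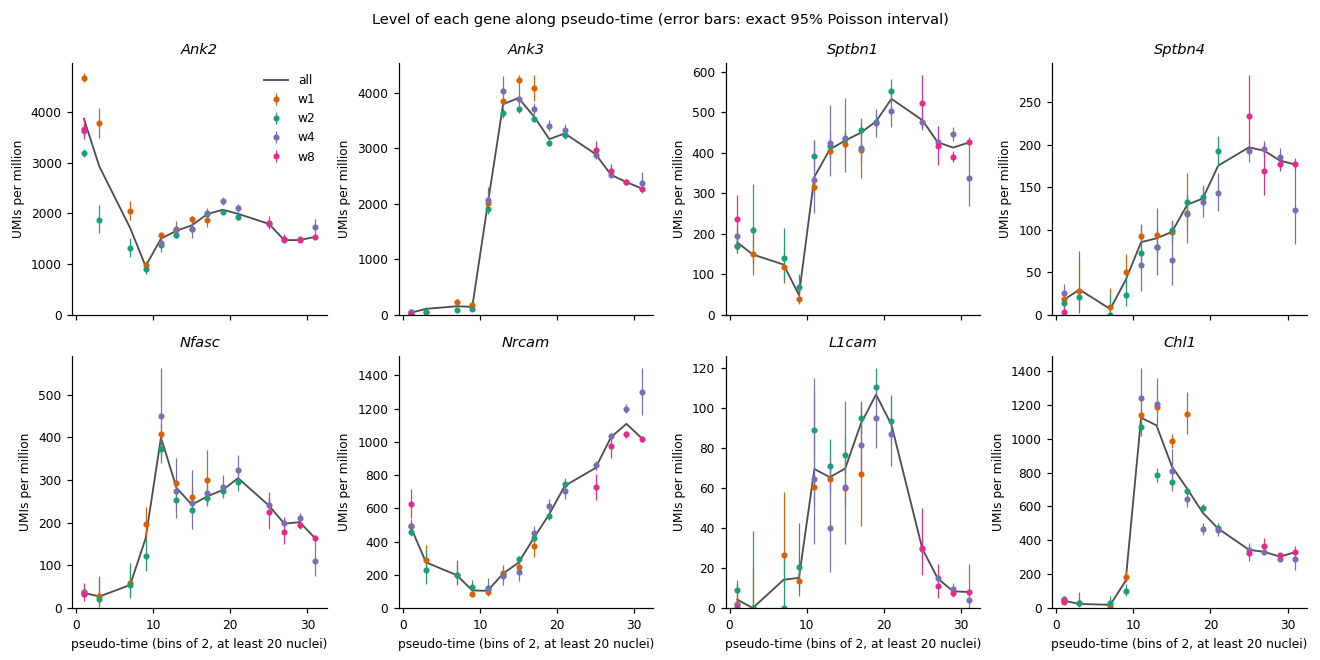
Level of each gene (CPM) along the deposited pseudo-time in bins of 2 units with at least 20 nuclei, with a grey line for all libraries and points for each library with exact 95% Poisson intervals. Nfasc and Chl1 have their highest bin from 10 to 12, and Nrcam from 28 to 30.

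Within each family the share of UMIs of each paralog differed between clusters. Ank3 made up 1.09% (95% interval 0.957% to 1.23%) of the UMIs of both ankyrins in RGL, 7.06% (95% interval 5.59% to 8.76%) in NPC and 66.5% (95% interval 66.1% to 66.9%) in NB1. The NPC value includes 2 nuclei of w8, and it was 5.68%, 6.87% and 3.41% in w1, w2 and w4. Ank3 still made up 64.2% in GCimm1 and 60.7% in GCmat1. Sptbn4 made up 9.41% (95% interval 7.81% to 11.2%) of the beta spectrin UMIs in RGL, 28.2% (95% interval 18.6% to 39.5%) in NPC, 17.7% (95% interval 16.7% to 18.8%) in NB1, 22.3% (95% interval 21.4% to 23.3%) in GCimm1 and 30.3% (95% interval 29.4% to 31.2%) in GCyoung. The NPC value rests on 22 UMIs of Sptbn4, 2 of them from the 2 nuclei of w8, and it was 31.8%, 18.5% and 25.0% in w1, w2 and w4. In counts thinned to 2000 UMIs per nucleus it was 18.6%, beside 17.9% in NB1. Shares are of UMIs and intronic reads favour long genes, so a share can be read across clusters but not as a ratio of transcripts.

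Of the L1 family UMIs, Nrcam held 85.4% in RGL, 59.2% in NPC, 12.6% in NB1, 28.9% in GCimm1 and 67.2% in GCmat1. Chl1 held 7.53%, 11.01%, 60.9%, 47.3% and 20.7% in the same clusters, with its highest share, 71.6%, in NB2. In GCimm2 the share of Nrcam was 43.5% and that of Chl1 31.2%. Together the 4 genes made up 0.148% of all UMIs in GCimm1, 0.153% in GCimm2, 0.155% in GCyoung, 0.154% in GCmat1 and 0.14% in GCmat2, after 0.0239% in NPC and 0.217% in NB2. All 8 genes held 0.149% of the UMIs of NPC and 0.751% of those of GCimm1.

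**Figure D4:**
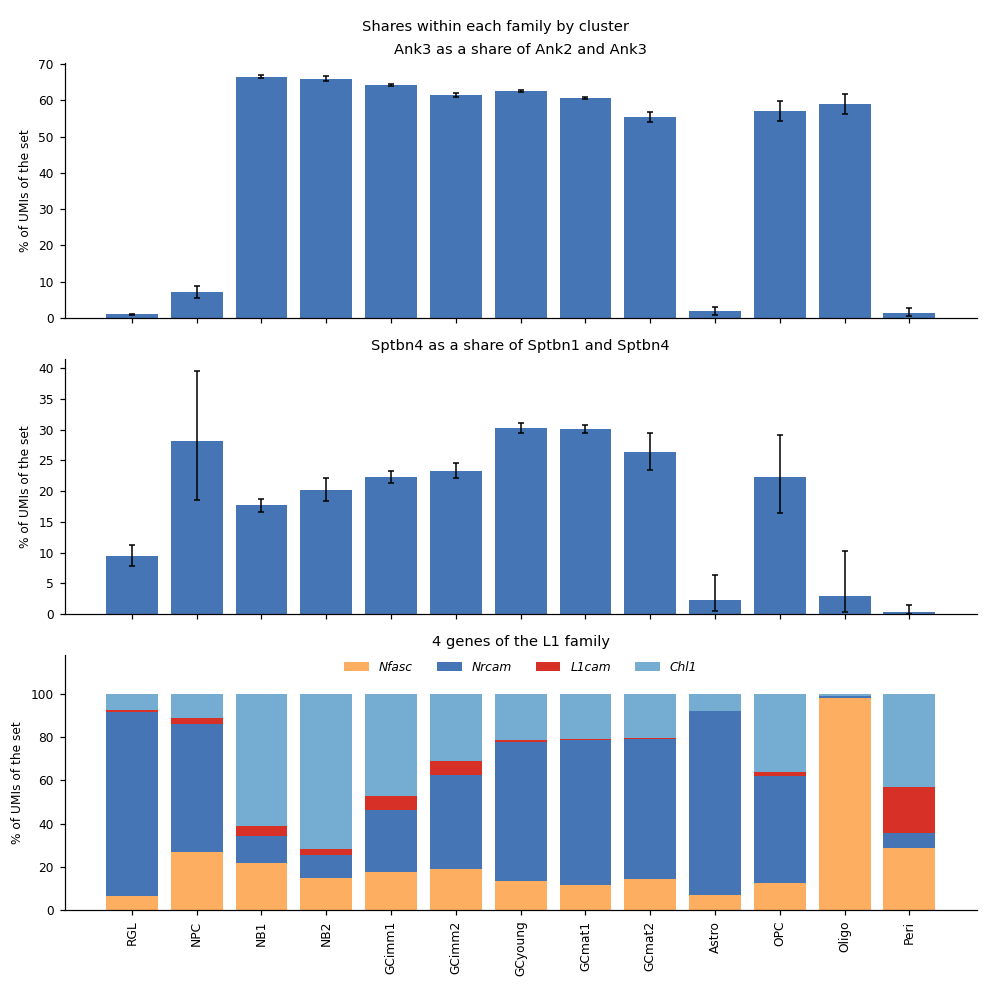
Share of UMIs (percent, y axis) by cluster that Ank3 held of both ankyrins, Sptbn4 of both beta spectrins and each gene of the L1 family, with all libraries summed and exact 95% binomial intervals as bars for the ankyrins and spectrins. Ank3 goes from 7.06% of ankyrin UMIs in NPC to 66.5% in NB1, and Nfasc holds 98.0% of L1 family UMIs in Oligo.

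The levels of different genes are set side by side per length of gene. Per 100 kb of gene span, GCmat1 held 379.9 CPM of Nrcam, 371 of Ank3, 261 of Ank2, 253 of Sptbn1, 202 of Sptbn4, 133 of Chl1, 101 of Nfasc and 20.3 of L1cam. In NB2 Chl1 led with 647, ahead of Ank3 with 471, and L1cam had 161. L1cam, the shortest of the 8 genes, had more UMIs than Nrcam on this scale in NB2 (84.4 for Nrcam) and fewer in GCmat1. Per length of exons the order in NB2 was the reverse, with 68.1 CPM over 7.35 kb for L1cam and 230 CPM over 13.4 kb for Nrcam. The order of genes thus depends on the length used.

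Outside the trajectory, and in RGL at its start, the genes called against GCimm1 differed in part between cell types. Against GCimm1, 5 of 8 were lower and 1 higher in astrocytes (background 17.2% lower and 15.5% higher), in OPC (15.4% and 14.4%) and in oligodendrocytes (18.3% and 9.45%). In Peri (18.3% and 16.5%) and in RGL (23.0% and 24.4%) 6 were lower and 1 higher. The 1 that was higher was Nrcam in astrocytes and OPC, Nfasc in oligodendrocytes, Sptbn1 in Peri and Ank2 in RGL. Sptbn4 and L1cam were called lower in each of these clusters.

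Oligodendrocytes held 1369, 2116 and 1408 CPM in w2, w4 and w8 of Nfasc, above every other cluster, where GCimm1 held 270.2, 259 and 261 in w1, w2 and w4. The difference from GCimm1 was 2.55 ± 0.19 (SE, edgeR adjusted p = 5.1e-17). Their Ank3 level, 3976, 3825 and 2636 in w2, w4 and w8, overlapped that of GCimm1, 4209, 3433 and 3655 in w1, w2 and w4. The difference from GCimm1, -0.27 ± 0.24 (SE, edgeR adjusted p = 0.44), was not called and turned to 0.060 under DESeq2 and 0.061 under RLE scaling, but was called lower, at -0.69, in thinned counts. Against the fitted sign, the Ank3 level was higher in oligodendrocytes in 2 of 2 libraries that hold both clusters. Nrcam (0, 13.1 and 44.9 in w2, w4 and w8), Chl1 (18.8, 0 and 29.96 in w2, w4 and w8) and Sptbn4 (0, 26.3 and 0 in w2, w4 and w8) were close to 0. L1cam had 0 UMIs in 219664, and against a floor of 3 UMIs over the cluster it was at least 6.87-fold lower than in GCimm1. Sptbn1 was lower than in GCimm1 (-0.81 ± 0.27 SE, edgeR adjusted p = 0.016), a call lost without w8 (-0.83, edgeR adjusted p = 0.053), under RLE scaling (-0.49) and with DESeq2 (-0.49). The median difference over all genes from GCimm1 to Oligo was -0.69 in the main fit, -0.37 under RLE scaling and -0.10 with DESeq2. In the main fit the fall of Sptbn1 thus lay near that of the typical gene. The cluster holds 10 to 16 nuclei in each library used, and the summed level of 4 granule cell lineage markers in it was 228 CPM, against 1687 in GCimm1. Prox1 made up 200.3 of this sum (825 in GCimm1), while Rbfox3 was at 4.55 (535 in GCimm1) and Dcx at 9.10 (321 in GCimm1). The part of granule cell RNA in these levels was not tested.

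OPC had UMIs of all 8 genes. Nrcam was 498, 686, 883 and 719 CPM in w1, w2, w4 and w8, higher than in GCimm1 with a difference of 0.85 ± 0.20 (SE, edgeR adjusted p = 4.5e-04). Ank3 was 1104, 876, 1158 and 1214 in w1, w2, w4 and w8 and lower than in GCimm1 with a difference of -1.69 ± 0.22 (SE, edgeR adjusted p = 3.8e-09), yet far above the astrocyte level of 38.3, 17.8 and 54.2 in w1, w2 and w4. Chl1 was 429, 477, 519.7 and 613 in w1, w2, w4 and w8, with a difference from GCimm1 that missed the fold (-0.58 ± 0.20 SE, edgeR adjusted p = 0.02), although it was called without w4, at -0.76 (edgeR adjusted p = 0.017), and without w8, at -0.63 (edgeR adjusted p = 0.026). Sptbn4 (59.2 pooled) was lower than in GCimm1 with a difference of -0.94 ± 0.26 (SE, edgeR adjusted p = 0.0038), which lost its call without w2, at -0.84 (edgeR adjusted p = 0.064). The granule cell lineage markers summed to 123 CPM in OPC, and their part in these levels was not tested.

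Between OPC and oligodendrocytes, successive stages of 1 lineage, 3 of the 8 genes were higher in oligodendrocytes and 4 lower (background 6.7% and 13.2%). The median difference over all genes was -0.43 there. From an OPC level of 184, 219, 163 and 134 in w1, w2, w4 and w8, Nfasc rose by 3.01 ± 0.21 (SE, edgeR adjusted p = 4.2e-18). Ank3 rose by 1.42 ± 0.22 (SE, edgeR adjusted p = 1.1e-06) and Ank2 by 1.32 ± 0.22 (SE, edgeR adjusted p = 4.2e-06). Nrcam fell with a difference of -5.39 ± 0.47 (SE, edgeR adjusted p = 3.0e-14) and Chl1 with -5.31 ± 0.53 (SE, edgeR adjusted p = 4.4e-12). Each of these 5 genes moved the same way in 3 of 3 libraries that hold both clusters. Sptbn4 was lower, with -2.71 ± 0.83 (SE, edgeR adjusted p = 0.012), which was not called without w2 (-2.25, edgeR adjusted p = 0.084), without w8 (-2.28, edgeR adjusted p = 0.073), with DESeq2 (-2.58, adjusted p = 0.075) or in thinned counts (-2.47, edgeR adjusted p = 0.18). L1cam, at 15.3, 43.8, 18.8 and 33.4 in w1, w2, w4 and w8 in OPC and 0 in oligodendrocytes, was at least 2.17-fold lower, and its call was lost without w2, w4 or w8 (edgeR adjusted p from 0.056 to 0.10) and in thinned counts (edgeR adjusted p = 0.13).

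Astrocytes held 2383, 1824 and 1517 CPM in w1, w2 and w4 of Ank2, which did not pass the test against GCimm1 (-0.04 ± 0.22 SE, edgeR adjusted p = 0.92). Their Nrcam level was higher than in GCimm1 with a difference of 1.75 ± 0.21 (SE, edgeR adjusted p = 2.8e-10), while Ank3 was lower, with -6.70 ± 0.38 (SE, edgeR adjusted p = 5.4e-22). Sptbn4, at 15.3, 0 and 10.8 in w1, w2 and w4, was lower with -3.81 ± 0.55 (SE, edgeR adjusted p = 8.2e-08). L1cam had 0 UMIs in 335189 there, at least 10.5-fold lower than in GCimm1. From Astro to RGL 4 of 8 genes were lower and 1 was higher (background 4.82% and 4.77%).

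In Peri 6 of the 8 genes were below the GCimm1 level, Ank2 and Sptbn1 being the exceptions. Sptbn1 was 1608 and 999 CPM in w1 and w2 there, its highest level in any cluster and higher than in GCimm1 with a difference of 1.37 ± 0.21 (SE, edgeR adjusted p = 2.3e-07). Ank2 was 1739.8 and 2079 in w1 and w2 and did not pass the test (-0.20 ± 0.25 SE, edgeR adjusted p = 0.59). Ank3, at 10.2 and 37.7 in w1 and w2, was lower, with -7.17 ± 0.45 (SE, edgeR adjusted p = 4.5e-20). Nrcam and Sptbn4 had 1 UMI each in the cluster.

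**Figure D5:**
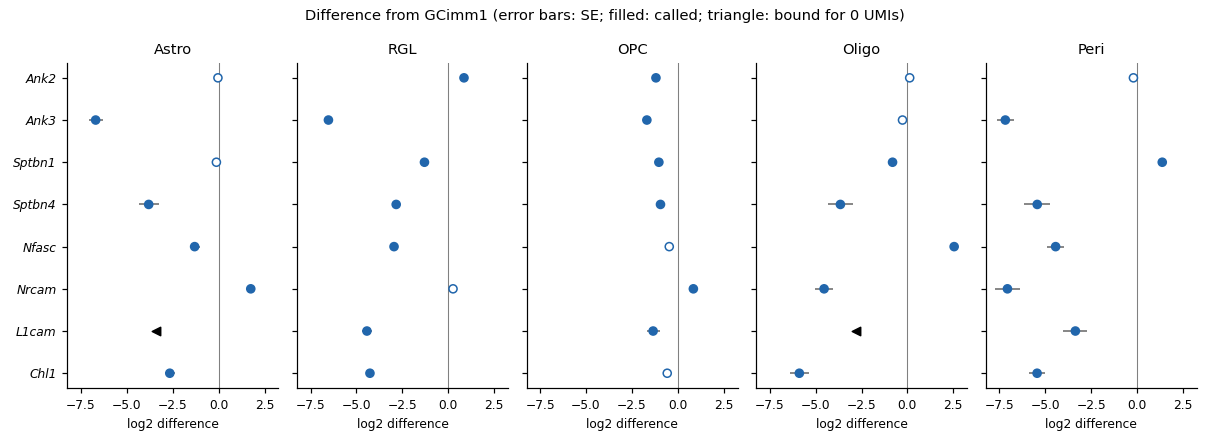
Fitted log2 difference from GCimm1 (x axis) of the 8 genes in Astro, RGL, OPC, Oligo and Peri, with standard errors as bars, filled points where called and a triangle for the bound where L1cam had 0 UMIs. Points right of 0 are filled for Nrcam in Astro and OPC, Ank2 in RGL, Nfasc in Oligo and Sptbn1 in Peri.

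The share of nuclei with at least 1 UMI was compared after thinning each nucleus to 2000 UMIs, which left out 141 shallower nuclei. Ank3 was seen in 8.16% of RGL, 11.2% of NPC, 92.3% of NB1 and 99.9% of GCimm1 nuclei, and in 8.96% of astrocytes and 1.67% of Peri nuclei. Before thinning the shares were 15.3%, 19.0%, 95.3%, 100.0%, 14.9% and 10%, at median depths of 4091.0, 4278.0, 4057.5, 5045.5, 4670.0 and 5108.0 UMIs. The thinned RGL share lay within the exact 95% intervals of astrocytes (3.36% to 18.5%) and of Peri (0.0422% to 8.94%), and it is not read as expression in RGL.

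For Nrcam the thinned share was 53.7% in RGL, 12.6% in NPC, 23.7% in NB1, 50.1% in GCimm1 and 85.8% in GCyoung, and 0 of 45 oligodendrocytes and 0 of 60 Peri nuclei had a UMI. For L1cam it was 12.7% in NB1, 18.5% in GCimm2, 3.45% in GCyoung and 1.46% in GCmat1, beside 1 of 60 Peri nuclei (1.67%, exact 95% interval 0.0422% to 8.94%) and 0 of 67 astrocytes, where the exact 95% interval reaches 5.36%. For Chl1 the thinned share was 67.6% in NB1, 90.2% in NB2 and 45.7% in GCmat1, against 2.22% in oligodendrocytes and 5.00% in Peri.

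Other genes of the initial segment and its skeleton were counted over 3 lists, which were also chosen with earlier results of these data known. Of 14 other ankyrin, spectrin and membrane skeleton genes, 10 were found in the matrices by name and 9 were tested, with no Epb41 gene among them. A gene held there under another name was not counted. From NPC to NB1 5 were higher and 0 lower (14.7% and 14.6% of all genes), led by Tmod1, a capping protein of actin filaments (4.17 ± 0.90, edgeR adjusted p = 1.9e-04), and Add2, a spectrin-binding adducin (1.26 ± 0.35, edgeR adjusted p = 0.0036). Tmod1 stood at 1.09 CPM in NPC and 17.1 in NB1, so the size of its rise rests on a level near 0. The median of this list was 0.94 against 0.06 over all genes. From GCimm2 to GCyoung 4 were higher and 0 lower (9.27% and 9.62% of all genes), with Tmod1 (1.89 ± 0.26) and Sptb, the erythrocyte beta spectrin (1.12 ± 0.19), in the lead. The counts higher and lower were 3 and 3 from RGL to NPC, 0 and 0 from NB1 to NB2, 2 and 0 from NB1 to GCimm1, 2 and 0 from GCimm1 to GCimm2, 0 and 0 from GCyoung to GCmat1, 0 and 1 from GCmat1 to GCmat2, 5 and 0 from RGL to GCmat1, and 0 and 1 from Astro to RGL. For these comparisons the shares over all genes were 13.7% higher and 15.9% lower from RGL to NPC, 7.76% and 4.75% from NB1 to GCimm1, 6.52% and 2.91% from GCimm1 to GCimm2, 24.6% and 24.9% from RGL to GCmat1 and under 5% in each direction for the others, and the counts of the next lists are read beside the same shares.

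Of 27 other genes of the initial segment and nodes, 26 were found in the matrices by name and 24 were tested. The sodium channel gene Scn2a was not among those tested. From NPC to NB1 13 were higher and 0 lower (14.7% and 14.6% of all genes), with a median of 1.32, and the sodium channel genes Scn1a (5.78 ± 0.70, edgeR adjusted p = 1.2e-09) and Scn3a (5.38 ± 0.45, edgeR adjusted p = 1.3e-14) rose most. Scn1a went from 3.28 to 56.2 CPM and Scn3a from 4.38 to 123, so the sizes of both rises rest on levels near 0 in NPC. From GCimm2 to GCyoung 7 were higher and 3 lower (9.27% and 9.62% of all genes). The calls of every list were made with all libraries only. Without w4 the calls over all genes at this step fell from 2553 to 487. Synpo, a protein of the cisternal organelle and spine apparatus (1.69 ± 0.22), and Cntnap1, the gene of the paranodal Caspr (1.67 ± 0.31), rose most, and Gldn, the gene of gliomedin (-1.68 ± 0.52), and Cntnap2, the gene of Caspr2 (-0.98 ± 0.21), fell most. Gldn went from 4.41 CPM in GCimm2 to 1.21 in GCyoung, so the size of its fall rests on levels near 0. The counts higher and lower at the other comparisons were 4 and 7 from RGL to NPC, 2 and 0 from NB1 to NB2, 10 and 0 from NB1 to GCimm1, 6 and 1 from GCimm1 to GCimm2, 0 and 1 from GCyoung to GCmat1, 3 and 2 from GCmat1 to GCmat2, 19 and 1 from RGL to GCmat1, and 3 and 4 from Astro to RGL.

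All 16 other partners, ligands and proteases of L1 family proteins were tested. From NPC to NB1 6 were higher and 3 lower (14.7% and 14.6% of all genes). Cntn2, an axonal contactin that binds L1 and NrCAM (3.54 ± 0.78), and Shtn1, which links L1 to actin in growth cones (3.51 ± 0.42), rose most, while Ptprz1, a receptor phosphatase of progenitors and glia (-2.98 ± 0.22), and Ezr, the gene of ezrin (-1.11 ± 0.23), fell most. Cntn2 stood at 2.19 CPM in NPC and 22.2 in NB1, so the size of its rise rests on a level near 0. From GCimm2 to GCyoung 2 were higher and 4 lower (9.27% and 9.62% of all genes). There Cntn2 (-3.42 ± 0.32, edgeR adjusted p = 4.4e-12) and Dcx, a microtubule protein of young neurons (-1.18 ± 0.22), fell most, and Ptprz1 (1.41 ± 0.26) and Numb, an endocytic adaptor (1.05 ± 0.20), rose. The counts higher and lower at the other comparisons were 2 and 3 from RGL to NPC, 0 and 0 from NB1 to NB2, 4 and 3 from NB1 to GCimm1, 1 and 1 from GCimm1 to GCimm2, 0 and 1 from GCyoung to GCmat1, 0 and 0 from GCmat1 to GCmat2, 6 and 3 from RGL to GCmat1, and 1 and 3 from Astro to RGL.

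Over the 29 sums of the trajectory fit, which include astrocytes and share libraries and depth, the genes most like each member were found by Pearson's r of log2 levels, as a description. Spearman's rho gave mostly other genes: of the 3 genes by r, 1 was among the 3 by rho for Sptbn1, Sptbn4 and Nrcam and 0 for the other 5 members. Ank3 had Hecw1 (0.993), Rbfox1 (0.985) and Cacna1c (0.982), and Ank2 had Park2 (0.850) and Sfxn1 (0.828). Sptbn1 had Kcnma1 (0.962), Adam11 (0.943) and Ccdc85a (0.935), and Sptbn4 had Osbp2 (0.972), Slc4a10 (0.965) and Celf4 (0.962). Nfasc had Syndig1 (0.961), Cacna1d (0.942) and Dopey2 (0.941), and Chl1 shared the foremost of these, Syndig1 (0.927), followed by Usp30 (0.925) and Dok6 (0.915). Nrcam had Syne1 (0.962), Pcdh9 (0.955) and Lsamp (0.945), and L1cam had Map3k9 (0.949), Adamts18 (0.943) and Basp1 (0.932). Among the 8 genes, r was highest between Ank3 and Nfasc (0.929), Nfasc and Chl1 (0.922), Ank3 and Sptbn4 (0.904) and Ank3 and Chl1 (0.900). It was -0.020 between Ank3 and Ank2 and 0.102 between Ank3 and Nrcam.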

How the data were processed

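The authors aligned the reads and counted UMIs per gene over exons and introns (STARsolo 2.7.4a and mm10, per the submitters' processing notes), and deposited these raw counts per barcode, with log2 normalized expression for 13353 genes, cluster and pseudo-time in a table. The deposited log2 values served to see which of the 8 genes they hold and as an alternative scale. The 8 genes and the lists were chosen with earlier results of these data known. Counts of the 14367 nuclei named in that table, of 17046 barcodes, were summed per library and cluster where at least 10 nuclei were present. The libraries held 13227971 to 28595331 UMIs. Doublets were taken as the authors left them. Sums were fitted in R 4.3.3 with edgeR 4.0.16 (filterByExpr, TMM, quasi-likelihood test, terms for cluster and library). The trajectory fit, which also took in astrocytes, had 29 sums and 13513 genes, and a second fit of all 13 clusters had 38 sums and 11548 genes. Each week is 1 pooled sample, so the sums of a cluster in several libraries served as replicates. A p-value sets a difference only against the spread between such sums, estimated over all clusters of a fit together. All 8 genes are given, and of each list the called genes that rose most (2) and fell most (2) at NPC to NB1 and at GCimm2 to GCyoung. The Cre driver and 1 gene among those most like Ank2 are not reported here. Intervals are exact 95% Poisson or Clopper-Pearson intervals and cover counting error only. The alternatives were DESeq2 1.42.0, RLE factors, no library term, no filter, sums of at least 30 nuclei, all clusters in the fit, counts thinned to 2000 UMIs per nucleus, no minimum fold, mean deposited log2 expression, Spearman's rho for likeness and leaving out each library. In simulated counts with known changes, the NPC to NB1 fit recovered 100 of 100 genes changed 4-fold and 66 of 100 changed 2-fold, with 4 false calls among 13147 genes. Recovery of 2-fold changes ran from 46 of 100 (OPC to Oligo) to 81 of 99 (GCimm1 to RGL). It was 50 of 100 from GCimm2 to GCyoung, and NB1 to NB2 had the most false calls, 12. All genes were drawn with 1 common dispersion and no library effect, and changes were set only in genes with enough counts. Recovery in the data could thus be lower.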

Additional observations from a re-analysis of the deposited data

How the results depend on the processing

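Of 128 differences of the 8 genes over 16 comparisons, 71 were called, 57 of them under every alternative run, and none of the 71 changed sign. Of the 57 not called, 7 were called under an alternative and 50 under none, 21 of which changed sign in an alternative fit. The number of the 8 genes changed from NB1 to NB2 was 0 without the library term (no replicate block) and with DESeq2. From GCimm1 to GCimm2 it was 1 without the library term, with DESeq2, with RLE factors and with sums of at least 30 nuclei, and from GCyoung to GCmat1 it was 0 without the library term and in thinned counts. Leaving out each library gave 3 to 5 from Astro to RGL, 0 to 1 from NB1 to NB2, 0 to 1 from GCimm1 to GCimm2, 0 to 3 from GCimm2 to GCyoung (0 without w4) and 0 to 1 from GCyoung to GCmat1. Of the differences not called whose values are printed, 4 changed sign: Ank3 from GCimm1 to Oligo to 0.060 with DESeq2 and 0.061 with RLE factors, Ank2 from GCimm1 to Astro to 0.17 with both (-0.38 without w1 to 0.055 without w4), Ank3 from RGL to NPC on leaving out a library (-0.017 without w1 to 0.80 without w4) and Ank3 from GCimm2 to GCyoung to 0.025 in thinned counts. The causes were not tested. Mean deposited log2 expression kept the sign of the 56 differences set beside it, and Spearman's rho gave 0 or 1 of the 3 genes most like each member by Pearson's r. The 56 leave out differences that no setting called, unless their values are printed, so small differences are mostly missing from them. Nrcam from NPC to NB1 was called in thinned counts, at 1.15 on the log2 scale, without the filter (0.71), with sums of at least 30 nuclei (0.60) and without w8 (0.63). RLE against TMM scaling moved the median of all genes by 0.31 from GCimm1 to Oligo, 0.21 from GCimm1 to Astro and -0.20 from Astro to RGL. Counts over all genes fell by over 1.5 times in thinned data in 13 of 16 comparisons, for example from 3964 to 2571 from NPC to NB1 and from 2553 to 1590 from GCimm2 to GCyoung, where leaving out w4 gave 487, and from 397 to 194 with DESeq2 from NB1 to NB2. Fewer genes were tested in thinned data, 9194 against 13513 along the trajectory and 8526 against 11548 over all clusters. The fall in counts there is thus not a fall in the share of genes called. Of 26 shares of Ank3 or Sptbn4 within its pair, 9 left their exact 95% interval in thinned counts. Depth limits L1cam most, with 3557 UMIs in all nuclei, and Oligo, Astro and Peri hold 45 to 67 nuclei.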

Other observations

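In w8, 216 nuclei of GCmat1 have no deposited pseudo-time and 2711 have one. The paper left GCmat1 nuclei that expressed ventral genes strongly out of its pseudo-time. Whether these 216 are such nuclei was not checked. Sptbn4 was at 246 CPM (227 to 267) in the nuclei without and 178 (172 to 183) in those with a pseudo-time, with exact 95% Poisson intervals in parentheses. Sptbn1 was 535 (506 to 565) against 413 (405 to 422), Nrcam 816 (781 to 853) against 1025 (1012 to 1038) and L1cam 15.0 (10.5 to 20.8) against 7.63 (6.54 to 8.85). Nfasc was 153 (137 to 169) against 175 (170.1 to 181). The intervals overlapped for Ank2, 1460.2 (1412 to 1509) against 1511 (1495 to 1527), Ank3, 2386 (2324 to 2448) against 2315 (2296 to 2335), and Chl1, 339.8 (317 to 364) against 324 (317 to 332). These values come from 1 library and no test was made.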
